A study of Mus musculus with 8 samples.

Results

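The receptors for GM-CSF, IL-3, IL-5 and CSF1 and their ligands GM-CSF and CSF1 were followed in mouse skin as 8 of 22740 protein-coding genes with listed counts. They were Csf2, Csf2ra, Csf2rb, Csf2rb2, Il3ra, Il5ra, Csf1 and Csf1r, found by gene symbol. The genes were chosen by their CPM (the count of a gene scaled to a common library size) in these same 8 libraries, so that their levels and fold changes are descriptions and carry no test. The set is named after receptors, but Csf2 and Csf1 encode secreted ligands. All libraries were made from skin of female BALB/c mice on a low-fibre diet. The authors give an age of 6 to 8 weeks when allergen exposure began, and lesional skin was taken after 2 weeks of exposure. Each mouse gave 1 library, and the 4 groups had 2 mice apiece. Baseline CTL mice drank water and received no allergen. Baseline butyrate mice drank 400 mM sodium butyrate and received no allergen. Their skin was taken when butyrate treatment ended, and whether that was after 2 weeks or later was not given. Lesional CTL mice drank water and were exposed epicutaneously to 15 µg of house dust mite (HDM) allergens 4 times over 2 weeks, which gives an atopic dermatitis-like skin inflammation. Lesional butyrate mice received the same exposures and drank 400 mM butyrate from 2 weeks before the first of them until the end. Replicate numbers are those of the mouse labels. Baseline and lesional mice belong to differently numbered sets, so that HDM exposure and the set of mice cannot be told apart. The allergen was applied to shaved skin under an occlusive patch. Whether the baseline skin of these libraries had a patch was not given in the sources used here, so that HDM exposure stands here for allergen and patch together.

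GM-CSF (encoded by Csf2), IL-3 and IL-5 are cytokines of myeloid cells that share a signalling receptor chain. Each binds an α chain of its own, encoded by Csf2ra, Il3ra and Il5ra, which pairs with the common β chain encoded by Csf2rb and signals through the kinase JAK2 and the transcription factor STAT5. Mice carry a further β chain, encoded by Csf2rb2, which serves IL-3 only. CSF1 binds a receptor tyrosine kinase, encoded by Csf1r, on which macrophages and Langerhans cells depend, and which IL-34, a product of keratinocytes, also binds. In skin, GM-CSF is known as a product of activated keratinocytes and lymphocytes, and IL-5 as the growth factor of eosinophils.

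The sequences of both β chains show how far their reads can be kept apart. Csf2rb (GRCm38, chr15:78325752-78353847, forward strand) and Csf2rb2 (chr15:78282507-78305721, reverse strand) lie 20030 bases apart and point away from each other. Their coding sequences, taken from GENCODE, hold 2688 and 2634 bases. Of 2628 aligned bases, 2503 (95.2%) were identical, and the longest identical run was 242 bases. The first 120-base stretch below, shown because its reads fit both genes, had 0 differences. It lies in the last long coding exon of Csf2rb at chr15:78348618-78348737 and of Csf2rb2 at chr15:78284711-78284830.
Csf2rb: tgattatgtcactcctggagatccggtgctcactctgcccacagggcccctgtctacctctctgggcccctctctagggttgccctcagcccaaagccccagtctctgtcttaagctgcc
Csf2rb2: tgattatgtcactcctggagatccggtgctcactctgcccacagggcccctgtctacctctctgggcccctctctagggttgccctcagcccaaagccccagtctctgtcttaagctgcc
The next stretch of 120 coding bases is the window with the most differences within an exon, 16 in all, which are in capitals. It lies at chr15:78338867-78338986 in Csf2rb and at chr15:78294345-78294464 in Csf2rb2.
Csf2rb: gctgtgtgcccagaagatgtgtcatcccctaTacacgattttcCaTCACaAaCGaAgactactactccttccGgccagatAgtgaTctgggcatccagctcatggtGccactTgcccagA
Csf2rb2: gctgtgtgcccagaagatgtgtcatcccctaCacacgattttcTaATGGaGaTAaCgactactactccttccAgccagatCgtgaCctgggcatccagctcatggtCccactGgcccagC
Over all exons, 12.3% of the 50-base words of Csf2rb and 18.9% of those of Csf2rb2 occurred in another annotated gene, and of the 100-base words 4.63% and 6.82% did. How reads that fit both genes were counted was not given in the sources used here, and the reference is not the BALB/c genome, so that the split between both β chains is uncertain.

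A promoter was found in the RefSeq table for 6 of the 8 genes, Csf2rb and Csf1r being the others. The promoter of Csf2rb2 (GRCm38.p6, chr15:78305672-78305971, reverse strand, 250 bases before to 50 bases after the start) is shown because the β chains had the widest differences between groups of the genes above 1 CPM. Capitals mark matches to the STAT motif TTCNNNGAA and to the PU.1 motif GAGGAA, which appears here on the other strand as TTCCTC.
Csf2rb2: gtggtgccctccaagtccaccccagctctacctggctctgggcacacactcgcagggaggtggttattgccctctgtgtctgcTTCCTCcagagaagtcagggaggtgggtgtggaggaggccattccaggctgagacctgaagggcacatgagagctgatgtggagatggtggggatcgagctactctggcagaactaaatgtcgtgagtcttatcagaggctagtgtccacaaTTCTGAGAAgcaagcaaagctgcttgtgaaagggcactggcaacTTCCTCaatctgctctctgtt
It held 1 match to TTCNNNGAA, a motif found on either strand in 8.30% of the 32851 promoters in the table, and 2 matches to GAGGAA, found in 28.3%. The motifs do not overlap each other. Of the other promoters, those of Csf2ra and Il5ra held 2 and 1 matches to GAGGAA, and none of the other 5 held TTCNNNGAA. A match is a run of letters and not a measured binding site.

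Libraries held between 18004136 and 21085544 counts. A count of 3, used as the floor, was worth 0.138 to 0.169 CPM, and only counting error is covered by it. Of the 22740 genes 15163 passed the filter on low counts and were tested with edgeR's quasi-likelihood test. Among the 8 genes 7 passed. Il5ra did not, and Csf2 passed only through its counts in lesional butyrate skin. Baseline butyrate replicate 3 stood apart. It differed by more than 2-fold from its replicate in 3807 of 14319 genes, against 181 to 634 genes in the other pairs, and fold changes, medians and counts of calls from comparisons with baseline butyrate skin are given with and without it. P-values measure the spread between mice. That spread was estimated over all 8 libraries, so that the baseline butyrate pair also weighs on the FDR of the comparison between lesional groups.

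**Figure D1:**
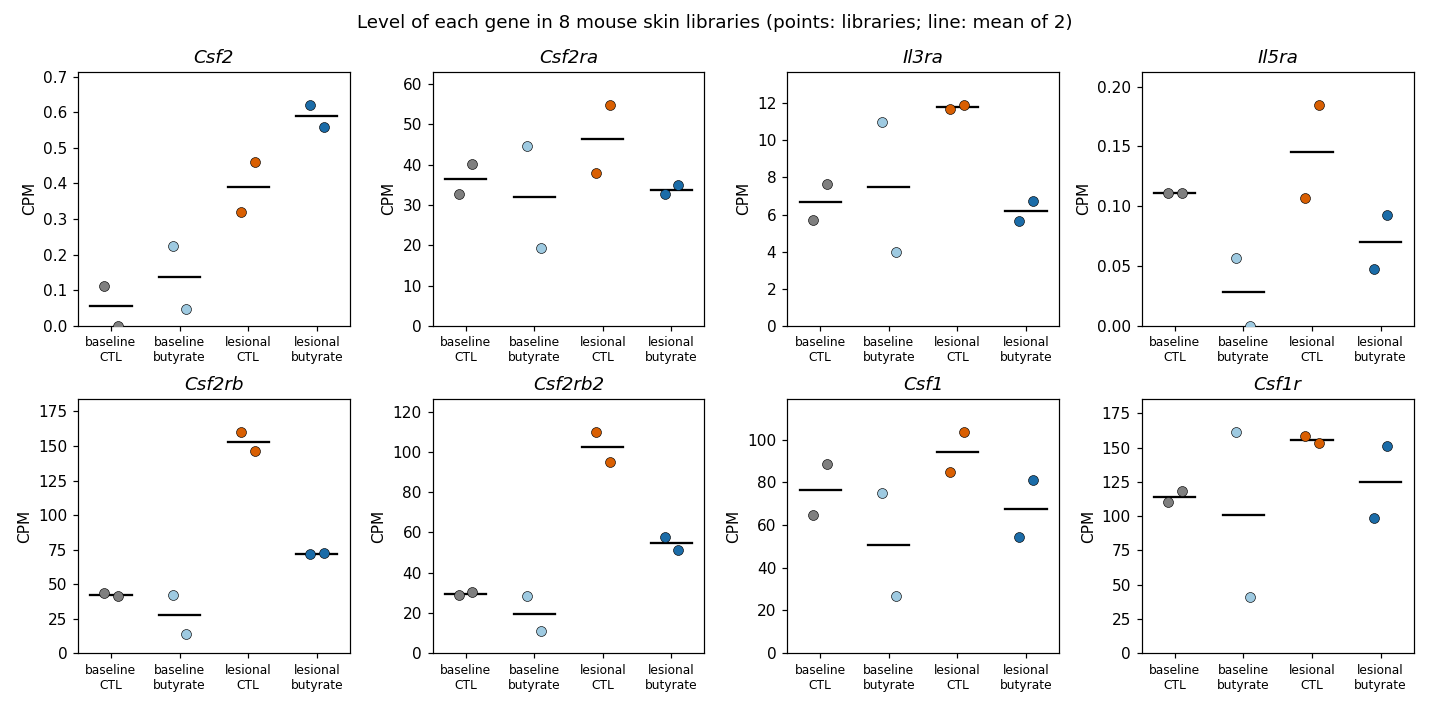
CPM (linear axes, 1 panel a gene) of the 8 genes in each library, by group from left to right (baseline skin of CTL and butyrate-treated mice, then lesional skin of both), with points for libraries and a line for the mean of 2. Csf2rb and Csf2rb2 were highest in both lesional CTL libraries, at 146 to 160 and 94.9 to 109.9 CPM, and in baseline butyrate skin the libraries of most genes lay far apart.

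Csf2rb and Csf2rb2, the shared and the IL-3-specific β chain, were the genes of the set with the clearest pattern. Csf2rb was at 43.3 and 41.0 CPM in baseline CTL skin, 41.9 and 13.7 in baseline butyrate skin, 160 and 146 in lesional CTL skin, and 71.6 and 72.3 in lesional butyrate skin. All 4 lesional libraries were above all 4 baseline libraries, and the lesional butyrate libraries lay between the others. Csf2rb2 was at 28.8 and 30.3 CPM in baseline CTL skin, 28.3 and 11.1 in baseline butyrate skin, 109.9 and 94.9 in lesional CTL skin, and 57.8 and 51.4 in lesional butyrate skin. The order of the groups was that of Csf2rb, again with no overlap between lesional CTL, lesional butyrate and baseline skin.

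With HDM exposure in CTL mice the mean level of Csf2rb went from 42.2 to 153 CPM (SD 9.54 in lesional skin, n = 2), a ratio of 3.63 and a log2 fold change of 1.86 (SE 0.47). For Csf2rb2 the ratio was 3.46 and the log2 fold change 1.79 (SE 0.41). In butyrate-treated mice the ratios were 2.59 for Csf2rb and 2.77 for Csf2rb2, with log2 fold changes of 1.37 (SE 0.46) and 1.47 (SE 0.40). Baseline butyrate replicate 3 had the lowest value of both genes, and without it those log2 fold changes were 0.78 and 0.95.

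Between lesional groups, Csf2rb averaged 72.0 ± 0.498 CPM (SD, n = 2) in butyrate-treated mice and 153 ± 9.54 CPM in CTL mice, a ratio of 0.470 and a log2 fold change of -1.09 (SE 0.46). Csf2rb2 averaged 54.6 ± 4.55 and 102 ± 10.6 CPM, a ratio of 0.533 and a log2 fold change of -0.91 (SE 0.40). In baseline skin the log2 fold changes with butyrate were -0.60 for Csf2rb and -0.59 for Csf2rb2, and without baseline butyrate replicate 3 they were -0.0082 and -0.06. The baseline butyrate values therefore rested on 1 mouse, while each lesional group had its mice close together. In bulk skin, fewer cells that carry a receptor and less of its RNA per cell cannot be told apart.

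Reads assigned to Csf2rb made up 55.3 to 60.7% of the reads of both β chains over the 8 libraries. The lowest shares were 55.3% (exact 95% binomial interval 50.9 to 59.6) in baseline butyrate replicate 3 and 55.3% (53.5 to 57.2) in lesional butyrate replicate 3. The highest was 60.7% (59.3 to 62.0) in lesional CTL replicate 5. The shares of the lesional groups were 59.3 and 60.7% in CTL against 55.3 and 58.5% in butyrate-treated mice. These intervals cover counting error only, since PCR copies are not independent molecules, and the split itself is uncertain.

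The α chains differed among themselves. Csf2ra, the GM-CSF-specific chain (chr19:61223957-61228429), was at 32.8 and 40.2 CPM in baseline CTL skin, 44.8 and 19.3 in baseline butyrate skin, 37.8 and 54.8 in lesional CTL skin, and 32.6 and 34.8 in lesional butyrate skin. Its groups overlapped in both comparisons with HDM, with log2 fold changes of 0.34 (SE 0.40) in CTL and 0.08 in butyrate-treated mice. Without baseline butyrate replicate 3 the latter was -0.41. In lesional skin the butyrate libraries were below the CTL libraries, by a log2 fold change of -0.46 (SE 0.40), close to 1 SE. In baseline skin the log2 fold change with butyrate was -0.19, and 0.29 without baseline butyrate replicate 3. The count ratio of Csf2rb to Csf2ra, which is not scaled for length, was 0.709 to 1.32 in the baseline libraries, 4.23 and 2.67 in lesional CTL skin and 2.19 and 2.08 in lesional butyrate skin.

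Il3ra, the IL-3-specific α chain (chr14:14346275-14356011), was at 5.72 and 7.66 CPM in baseline CTL skin, 11.0 and 4.00 in baseline butyrate skin, 11.7 and 11.9 in lesional CTL skin, and 5.63 and 6.75 in lesional butyrate skin. The lesional CTL libraries were the highest of the 8. In lesional butyrate skin the level was within the range of baseline CTL skin or just below it. In CTL mice its mean was 1.76 times as high in lesional as in baseline skin (log2 fold change 0.82, SE 0.46). Between lesional groups it averaged 6.19 ± 0.788 in butyrate-treated and 11.8 ± 0.154 CPM in CTL mice, a ratio of 0.525 and a log2 fold change of -0.93 (SE 0.46). With HDM in butyrate-treated mice the log2 fold change was -0.27, and -0.83 without baseline butyrate replicate 3. With butyrate in baseline skin it was 0.16, and 0.72 without that replicate. The fitted difference between the butyrate effects in lesional and in baseline skin was widest for Il3ra among the genes above 1 CPM, at -1.09 (SE 0.65) on the log2 scale, with -0.49 (SE 0.65) for Csf2rb. Without baseline butyrate replicate 3 these differences were -1.65 and -1.08.

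Il5ra, the IL-5-specific α chain of eosinophils (chr6:106710357-106749037), was at the floor. It had 2 and 2 counts in baseline CTL skin, 1 and 0 in baseline butyrate skin, 2 and 4 in lesional CTL skin, and 1 and 2 in lesional butyrate skin. Its CPM values ran from 0 to 0.185. No fold is given, and no difference between groups was detectable at this depth. The eosinophil peroxidase gene Epx had 0 counts in all 8 libraries and the eosinophil ribonuclease gene Ear6 did not exceed 3 counts in any. Of the other eosinophil markers, the receptor gene Ccr3 rose with HDM in CTL mice, from 0.306 to 2.58 CPM (log2 fold change 3.06, edgeR FDR 0.0604), and Ear2 was at 6.28 and 31.5 CPM (FDR 0.138).

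Csf1r, the receptor of CSF1 and IL-34 (chr18:61100598-61132149), was at 109.9 and 118 CPM in baseline CTL skin, 161 and 41.1 in baseline butyrate skin, 158 and 153 in lesional CTL skin, and 98.4 and 151 in lesional butyrate skin. Baseline butyrate skin held both the highest and the lowest of the 8 values. The lesional CTL libraries were above the baseline CTL libraries by a log2 fold change of 0.45, less than its SE of 0.58. Lesional butyrate skin was below lesional CTL skin by a narrow gap at replicate 4, with a log2 fold change of -0.32 (SE 0.58). In butyrate-treated mice the log2 fold change with HDM was 0.31, and -0.37 without baseline butyrate replicate 3, and with butyrate in baseline skin it was -0.18, and 0.50 without that replicate. Of its 100-base words, 13.5% occurred in Hmgxb3, which overlaps it on the opposite strand, and reads of both can be told apart only if the library kit kept the strand, which was not given in the sources used here.

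Csf1, the ligand of that receptor (chr3:107741048-107760469), was at 64.6 and 88.4 CPM in baseline CTL skin, 75.0 and 26.5 in baseline butyrate skin, 85.0 and 103.5 in lesional CTL skin, and 54.2 and 81.1 in lesional butyrate skin. Baseline and lesional CTL libraries overlapped (log2 fold change 0.30, SE 0.48). The lesional groups did not, although their nearest libraries were at 81.1 and 85.0 CPM, with a log2 fold change of -0.48 (SE 0.48). In butyrate-treated mice the log2 fold change with HDM was 0.41, and -0.15 without baseline butyrate replicate 3, and with butyrate in baseline skin it was -0.59, and -0.03 without that replicate. The count ratio of Csf1r to Csf1 stayed between 1.34 and 2.15 in all 8 libraries.

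Csf2, which encodes GM-CSF (chr11:54247271-54249667), was the scarcest of the genes that passed the filter. It had 2 and 0 counts in baseline CTL skin, 4 and 1 in baseline butyrate skin, 6 and 10 in lesional CTL skin, and 13 and 12 in lesional butyrate skin. In CPM, the lesional libraries were at 0.320 and 0.461 in CTL and at 0.620 and 0.558 in butyrate-treated mice, and no baseline library exceeded 0.225. Every lesional library was above every baseline library. From 16 counts against 2, the ratio of lesional to baseline skin in CTL mice was 7.13, with an exact 95% interval for counting error of 1.68 to 63.9. In butyrate-treated mice it was 4.61 (1.73 to 15.4), from 25 counts against 5, and 2.61 (0.902 to 10.3) without baseline butyrate replicate 3. These intervals pool the mice of a group and leave out the spread between them. They test nothing, since the same counts chose Csf2, which passed the filter only through lesional butyrate skin, where it was highest. Between lesional groups the butyrate libraries were the higher ones, with a log2 fold change of 0.58 (SE 0.72). This was the opposite order to that of the receptor genes, at 6 to 13 counts per library. On the opposite strand Csf2 shares 6.39% of its 50-base words with Gm12223.

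Scaled by the length of all annotated exons, the order of the genes also differed between baseline and lesional skin. In baseline CTL skin Csf1r was highest at 19.8 CPM per kb, followed by Csf1 at 14.5 and Csf2ra at 12.7, which did not differ beyond their spread. Csf2rb2 and Csf2rb followed at 6.24 and 5.80 CPM per kb, Il3ra at 2.26, Csf2 at 0.0695 and Il5ra at 0.0311, the last pair with overlapping libraries. In lesional CTL skin Csf1r was again highest at 27.0 ± 0.653 CPM per kb (SD, n = 2), but next came Csf2rb2 at 21.6 ± 2.24 and Csf2rb at 21.1 ± 1.31, which did not differ beyond their spread. Both were above Csf1 at 17.9 ± 2.48 and Csf2ra at 16.1 ± 4.18, a pair that overlapped. In lesional butyrate skin Csf1r was highest at 21.6 CPM per kb. Csf1 at 12.8, Csf2ra at 11.8 and Csf2rb2 at 11.5 CPM per kb overlapped as neighbours, above Csf2rb at 9.89, Il3ra at 2.09 and Csf2 at 0.737. In baseline butyrate skin all neighbours from Csf1r down to Il3ra overlapped. With the longest transcript as length, Csf2rb came above Csf2rb2, at 31.3 against 21.6 CPM per kb in lesional CTL skin, and Csf2rb2 then overlapped with Csf1 at 22.6 and Csf2ra at 20.3.

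**Figure D2:**
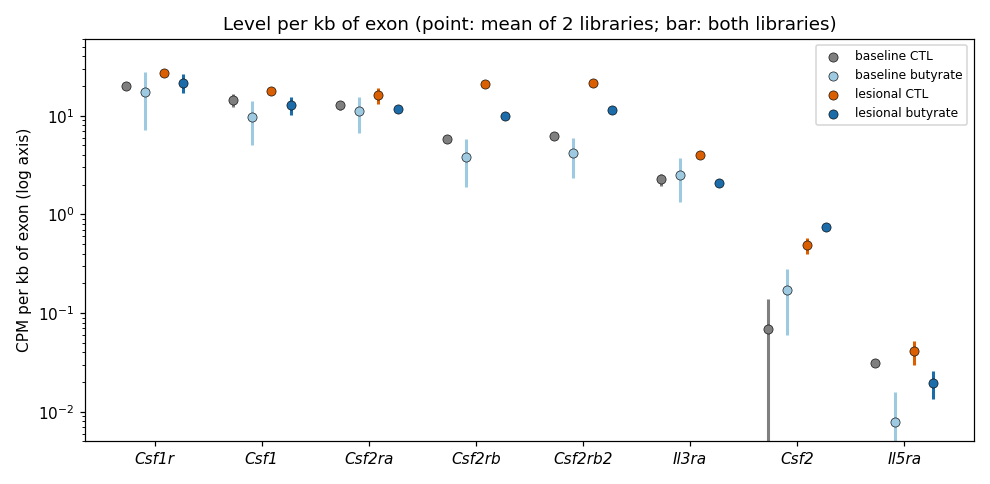
Level of the 8 genes per kb of exon (log axis, CPM per kb) in the 4 groups, with points for the mean of 2 libraries and bars between both libraries, a bar that meets the axis standing for a library at 0. In lesional CTL skin Csf2rb and Csf2rb2, at 21.1 and 21.6 CPM per kb, were above Csf2ra at 16.1 by this length, while in baseline CTL skin they were below it.

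**Figure D3:**
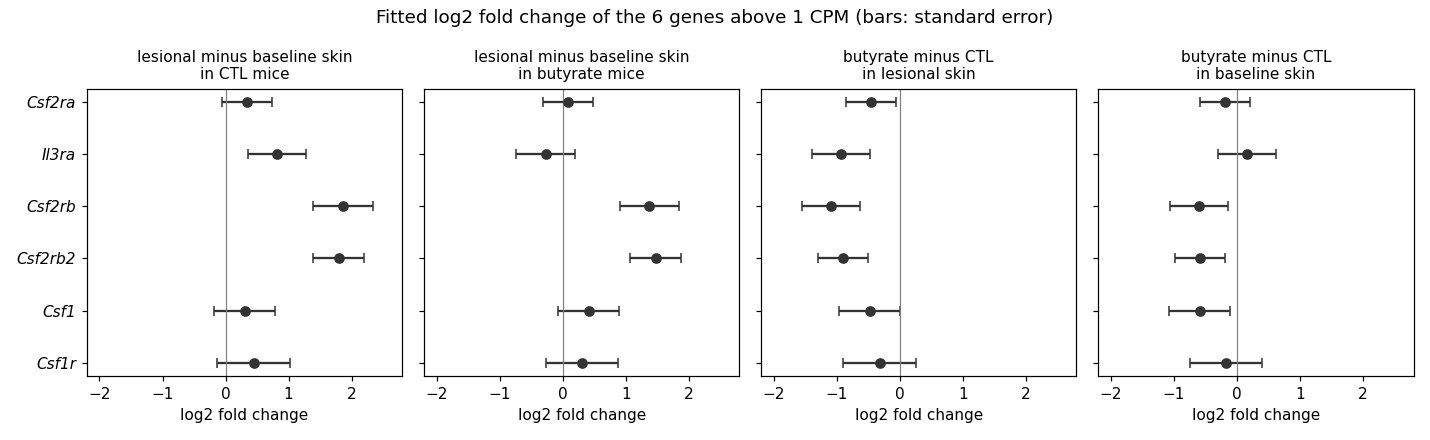
Fitted log2 fold changes (points) with their SE (bars) of the 6 genes above 1 CPM in 4 comparisons, each named as first group minus second. Csf2rb and Csf2rb2 lay between 1.37 and 1.86 in both comparisons of lesional with baseline skin, and all 6 genes were below 0 in lesional butyrate against lesional CTL skin.

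Counted over the set, a gene was called at a false discovery rate (FDR) below 0.1 and a fold above 2. In lesional against baseline skin of CTL mice 1 of the 7 tested genes, Csf2rb2, was called, against 3.58% of all 15163 tested genes (360 higher and 183 lower). Of the 7 genes 5 were higher in both lesional libraries than in both baseline libraries (Csf2, Csf2rb, Csf2rb2, Il3ra and Csf1r), as were 36.7% of all tested genes. In butyrate-treated mice 0 of 7 were called, against 0.35% of all genes (53 genes, or 912 without baseline butyrate replicate 3), and 3 (Csf2, Csf2rb and Csf2rb2) were higher without overlap, as were 15.7% of all genes. In lesional butyrate against lesional CTL skin 0 of 7 were called by edgeR, which called 0% of all genes, with 734 genes at an unadjusted p under 0.05. limma-voom called 1 gene and DESeq2 124, none of them of this set. With the 4 compared mice only edgeR called 25 genes, and without either baseline butyrate replicate 190 or 188, each time with Csf2rb among them. In that comparison 6 of the 7 genes, all but Csf2, were lower in both butyrate libraries, as were 22.5% of all genes. With butyrate in baseline skin edgeR again called 0 of 7, and 0% of all genes (529 at an unadjusted p under 0.05), against 0 by limma-voom and 58 by DESeq2. For the difference between both butyrate effects edgeR called 0 of 7 and 0% of all genes (703 at an unadjusted p under 0.05), limma-voom 0 and DESeq2 37. Csf2 is counted here although it passed the filter only through lesional butyrate skin. Without it, 4 of 6 genes were higher without overlap with HDM in CTL mice and 2 of 6 in butyrate-treated mice. Since these values chose the set, nothing is read from its counts.

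The median log2 fold change of the 7 genes was 0.82 with HDM in CTL mice, 0.41 with HDM in butyrate-treated mice, -0.48 with butyrate in lesional skin and -0.19 with butyrate in baseline skin. Over all tested genes these medians were -0.02, -0.04, -0.0053 and 0.0012. Without Csf2, whose fitted values rest on baseline counts near the floor, the medians of the other 6 were 0.63, 0.36, -0.69 and -0.39. Without baseline butyrate replicate 3 the median of the 7 genes was -0.15 with HDM in butyrate-treated mice and 0.29 with butyrate in baseline skin.

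Of the other ligands of the family, Il3 was at 0 counts in 7 libraries and at 1 count in lesional butyrate replicate 3. Il5, which encodes IL-5, had 2 and 0 counts in baseline CTL skin, 2 and 1 in baseline butyrate skin, 15 and 16 in lesional CTL skin, and 10 and 9 in lesional butyrate skin. Its ratio of lesional to baseline skin in CTL mice was 13.8, with an exact 95% interval for counting error of 3.52 to 119. This interval leaves out the spread between mice. Il5 was called higher there (edgeR, FDR 0.0913), but not when the filter was left out. It passed the filter only through its counts in lesional CTL skin, so that this call is a description. In butyrate-treated mice the FDR was 0.305, and 0.232 without baseline butyrate replicate 3. Between lesional groups its log2 fold change was -0.77 (SE 0.60, FDR 1.00). Il34 encodes the second ligand of CSF1R. It was at 55.7 and 49.2 CPM in baseline CTL skin, 56.5 and 12.5 in baseline butyrate skin, 25.6 and 27.0 in lesional CTL skin, and 38.9 and 34.7 in lesional butyrate skin. Its lesional CTL libraries were the lowest apart from baseline butyrate replicate 3. No comparison of Il34 passed the test, and the log2 fold change with HDM in CTL mice was -0.997 (SE 0.608, FDR 0.395). In butyrate-treated mice it was 0.10, and -0.62 (FDR 0.0611, fold below 2) without baseline butyrate replicate 3.

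Other genes of the pathway were taken from 5 lists with 53 genes, of which 50 were tested by edgeR with FDR over all genes. In CTL mice 6 of the 50 rose with HDM and 0 fell, against 3.58% of all tested genes called in either direction. Those described here are Il5, the receptor genes Csf3r and Il4ra, and the STAT5-linked genes Socs1 and Osm. Il5 is counted here although it passed the filter only through lesional CTL skin. An unadjusted edgeR p under 0.05 was reached in CTL mice by 15 of the 50 (30%), against 19.7% of all tested genes. In the other 4 comparisons edgeR called 0 of the 50. At an unadjusted p under 0.05 there were 9 genes with butyrate in lesional skin, 2 with butyrate in baseline skin, 10 with HDM in butyrate-treated mice and 2 for the difference between the butyrate effects, which is 18%, 4%, 20% and 4% of the 50, against 4.84%, 3.49%, 13.1% and 4.64% of all tested genes. limma-voom called 0 in each of these comparisons, and DESeq2 called Il4ra, Osm and Socs3 lower with butyrate in lesional skin and Csf3r, Il4ra, Il7r and Socs1 higher with HDM in butyrate-treated mice. Fitted with the 4 lesional mice only, edgeR called Il4ra of the 50 with butyrate in lesional skin, and 25 genes over all. Without baseline butyrate replicate 3 the log2 fold changes of Csf3r, Il4ra, Il7r and Socs1 with HDM in butyrate-treated mice were 1.60, 0.99, 1.07 and 1.13. The median log2 fold change of the 50 genes was 0.45 with HDM in CTL mice, 0.30 with HDM in butyrate-treated mice, -0.23 with butyrate in lesional skin and -0.26 with butyrate in baseline skin, beside the medians of all genes above. Without baseline butyrate replicate 3 it was 0.17 with HDM in butyrate-treated mice and 0.0022 with butyrate in baseline skin. As these comparisons share libraries, their values are set side by side only.

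Of 16 genes of receptor-proximal signalling 0 were called in any comparison. Jak2, the kinase bound to the β chain, averaged 73.0 CPM in baseline CTL, 124 in lesional CTL and 89.9 in lesional butyrate skin. Its log2 fold change with HDM in CTL mice was 0.77 (SE 0.15), with an FDR of 0.0696 but a fold below 2. Between lesional groups its log2 fold change was -0.47 (SE 0.15, FDR 0.914), and the fitted difference between the butyrate effects was -0.49 (SE 0.21, FDR 0.840), or -0.56 without baseline butyrate replicate 3. Shc1, an adaptor of the receptor, was at 89.0 CPM in lesional CTL and 76.9 in lesional butyrate skin (log2 fold change -0.21, SE 0.11). Stat5a, the transcription factor downstream, averaged 24.2 ± 16.5 CPM (SD, n = 2) in baseline butyrate and 45.8 ± 2.97 in lesional butyrate skin (log2 fold change 0.92, SE 0.44, FDR 0.430), and without baseline butyrate replicate 3 that log2 fold change was 0.35 (FDR 0.123). In baseline skin Stat5a and the adaptor gene Gab2 had log2 fold changes with butyrate of -0.78 (SE 0.44) and -0.57 (SE 0.35), and of -0.21 and -0.13 without that replicate.

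Among 12 STAT5 targets and feedback genes 2 rose with HDM in CTL mice and 0 fell. Osm, a cytokine gene induced by GM-CSF and IL-3, was at 0.222 and 0.944 CPM in baseline CTL skin, 9.71 and 12.8 in lesional CTL skin, and 1.34 and 2.14 in lesional butyrate skin, and rose in CTL mice by a log2 fold change of 4.26 (SE 0.81, FDR 0.0645). Socs1, a feedback inhibitor of JAK kinases, was at 5.06 and 4.83 CPM in baseline CTL skin, 15.1 and 13.2 in lesional CTL skin, and 9.16 and 6.42 in lesional butyrate skin. It rose in CTL mice by a log2 fold change of 1.51 (SE 0.25, FDR 0.0450). With HDM in butyrate-treated mice Socs1 had a log2 fold change of 1.09 (SE 0.25, FDR 0.198) and the kinase gene Pim2 of 0.61 (SE 0.20). Without baseline butyrate replicate 3 they were 1.13 (FDR 0.0755) and 0.58. With butyrate in lesional skin Socs3, a feedback inhibitor of cytokine signalling, had a log2 fold change of -1.44 (SE 0.37, FDR 0.737) and Osm of -2.69 (SE 0.72, FDR 0.784). In baseline skin the feedback gene Socs2 had a log2 fold change with butyrate of -1.38 (SE 0.45, FDR 0.714) and the survival gene Bcl2 of -0.37 (SE 0.16), against -0.81 and -0.23 without that replicate. For the difference between the butyrate effects, Bcl2 had a value of 0.90 (SE 0.22, FDR 0.840) and Osm of -2.49 (SE 1.12), against 0.75 and -3.22 without it.

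Of 11 myeloid transcription factor genes 10 were tested, and 0 fell in any comparison. Cebpa, a factor of myeloid cells and keratinocytes, had a log2 fold change of 0.37 (SE 0.17, edgeR FDR 1.00) between lesional groups. For the difference between the butyrate effects its value was 0.54 (SE 0.24), against 0.35 without baseline butyrate replicate 3. With HDM in butyrate-treated mice Cebpa had a log2 fold change of 0.45 (SE 0.17, FDR 0.353) and Klf4, a keratinocyte and myeloid factor, of 0.77 (SE 0.32), against 0.26 and 0.46 without that replicate. In baseline skin Klf4 and Runx1 had log2 fold changes with butyrate of -0.44 (SE 0.32) and 0.58 (SE 0.43), against -0.12 and -0.24 without it.

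Of 11 other receptor genes for haematopoietic growth factors 10 were tested, and 2 rose with HDM in CTL mice. Csf3r, the G-CSF receptor of neutrophils, was at 6.45 and 8.16 CPM in baseline CTL skin, 117 and 137 in lesional CTL skin, and 24.2 and 46.8 in lesional butyrate skin. It rose by a log2 fold change of 4.12 (SE 0.70, FDR 0.0508). Il4ra, the shared α chain of the IL-4 and IL-13 receptors, was at 59.4 and 79.7 CPM in baseline CTL skin, 273 and 262 in lesional CTL skin, and 104.3 and 91.1 in lesional butyrate skin, and rose by a log2 fold change of 1.94 (SE 0.32, FDR 0.0458). In butyrate-treated mice the log2 fold changes with HDM were 2.30 (SE 0.66, FDR 0.276) for Csf3r and 1.38 (SE 0.31, FDR 0.198) for Il4ra, and without baseline butyrate replicate 3 they were 1.60 (FDR 0.0802) and 0.99 (FDR 0.0566). Between lesional groups Il4ra had a log2 fold change of -1.45 (SE 0.31, FDR 0.737) and Crlf2, a receptor chain for TSLP, one of -0.82 (SE 0.23, FDR 0.831). For the difference between the butyrate effects the values were -1.82 (SE 0.90) for Csf3r and -0.66 (SE 0.33) for Crlf2, both at an FDR of 0.840, against -2.52 and -0.89 without that replicate. In baseline skin Il4ra and the IL-7 receptor gene Il7r had log2 fold changes with butyrate of -0.89 (SE 0.31) and -0.76 (SE 0.46), against -0.50 and -0.22 without it.

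Some markers of the cells that carry these receptors differed between the groups, foremost those of neutrophils. The summed level of 8 neutrophil markers was 22.8 and 26.6 CPM in baseline CTL skin, 31.7 and 19.3 in baseline butyrate skin, 2812 and 1735 in lesional CTL skin, and 797 and 368 in lesional butyrate skin. All 7 that were tested rose with HDM in CTL mice and 2 (S100a9 and Cxcr2) in butyrate-treated mice by edgeR, or 4 without baseline butyrate replicate 3, but Ly6g, a defining marker, did not exceed 0.23 CPM in any library. S100a8 and S100a9, which inflamed keratinocytes also express, held most of these sums in lesional skin. The other markers of the list summed to 346 and 321 CPM in lesional CTL skin and to 86.9 and 97.4 CPM in lesional butyrate skin. The sums with and without that pair had the same order of groups in lesional skin as Csf2rb, and their part in the result was not tested. The sum of 9 macrophage markers was 829 and 1142 CPM in baseline CTL skin, 1511 and 383 in baseline butyrate skin, 1472 and 1751 in lesional CTL skin, and 777 and 1451 in lesional butyrate skin, with 0 of 9 called in any comparison. With HDM in CTL mice 7 of the 9 had a log2 fold change above 0. Mertk went the other way, from 21.4 CPM in each baseline library to 11.6 and 11.1 CPM in lesional CTL skin. Its log2 fold change was -0.91 (edgeR FDR 0.0887, fold below 2). Fcgr1 averaged 15.9 CPM in baseline and 12.4 in lesional CTL skin, with overlapping libraries. Both the macrophage sum and Csf1r were lowest in baseline butyrate replicate 3, and the part of the macrophage markers in the levels of Csf1r was not tested.

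The sum of 6 listed eosinophil markers was 3.62 to 14.1 CPM in the baseline and 28.9 to 42.2 CPM in the lesional libraries, mostly from Ear2. Ccr3 was the 1 of 3 tested that rose with HDM in CTL mice. It was at 1.60 and 3.55 CPM in lesional CTL and 0.573 and 0.605 CPM in lesional butyrate skin (edgeR FDR 0.737). Ear2 overlapped between these groups. Basophil markers summed to 1.43 to 2.71 CPM in baseline and 4.01 to 12.8 CPM in lesional libraries, with 2 of 4 tested (Mcpt8 and Fcer1a) rising with HDM in CTL mice. Neither would have passed the filter without its counts in lesional CTL skin, so that these calls are descriptions. Mast cell markers summed to 118 to 229 CPM in baseline and 403 to 498 CPM in lesional libraries. In CTL mice 2 of 6 (Cma1 and Tpsb2) rose, and 5 of 6 had a log2 fold change above 0. Mrgprb2 went the other way, from 16.4 and 15.8 CPM in baseline to 4.64 and 5.58 CPM in lesional CTL skin, and was not called. Dendritic and Langerhans cell markers summed to 254 to 1027 CPM in baseline and 1160 to 1275 CPM in lesional libraries, mostly from Cd74 and H2-Aa. In CTL mice 1 of 9 (Ccr7) rose, and 6 had a log2 fold change above 0. The 3 below 0 were Xcr1 (mean 1.78 CPM in baseline and 1.29 in lesional skin), Clec9a (2.64 and 1.74) and Cd207 (32.8 and 27.3), each with overlapping libraries. Markers of T cells and innate lymphoid cells summed to 140 to 191 CPM over the 8 libraries, mostly from Gata3. In CTL mice 2 of 6 (Il2ra and Icos) rose, and 5 of 6 had a log2 fold change above 0. Gata3 went the other way, from 173 and 155 CPM in baseline to 96.3 and 92.2 CPM in lesional CTL skin, and was not called. Monocyte markers summed to 32.9 to 157 CPM and markers of fibroblasts and endothelium to 1303 to 3181 CPM, with 0 called in any comparison. Of the monocyte markers in CTL mice, Ccr2 was higher in lesional than in baseline skin (mean 86.8 against 36.2 CPM). Ly6c2 and Plac8 had lower means in lesional skin, with overlapping libraries. B cell markers were below 1 CPM in sum, and none of 3 passed the filter. The tissue was skin by its keratinocyte markers, which summed to 12706 to 19428 CPM in 7 libraries and to 7653 CPM in baseline butyrate replicate 3.

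**Figure D4:**
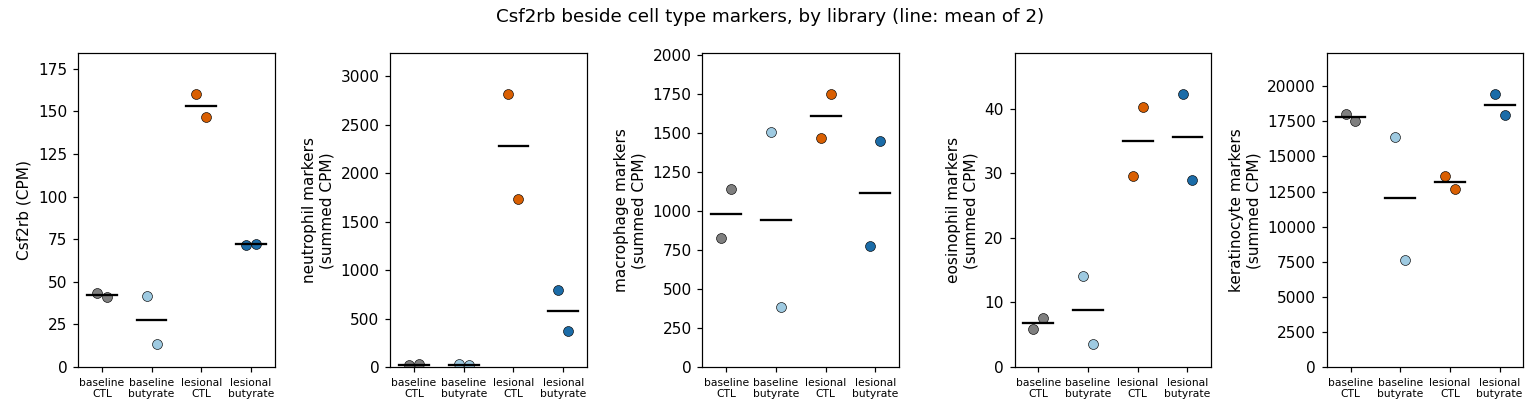
CPM of Csf2rb and summed CPM of neutrophil, macrophage, eosinophil and keratinocyte markers (linear axes) in each library, with points for libraries and a line for the mean of 2. Neutrophil markers summed to 1735 and 2812 CPM in lesional CTL and to 368 and 797 CPM in lesional butyrate skin, the order of groups of Csf2rb. The eosinophil sum, mostly from Ear2, overlapped between the lesional groups, although its marker Ccr3 did not.

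The genes whose levels followed each receptor most closely over the 8 libraries were found by the root mean square difference of centred log2 CPM, among 3700 genes with a mean of at least 1 CPM and an SD of at least 0.5. This is a description over libraries that share groups. Nearest to Csf2rb were Cytip (0.11), Akr1b8 (0.18) and Clec4n (0.21), and nearest to Csf2rb2 were Cytip (0.08), Akr1b8 (0.12) and Gpr132 (0.16). Csf2rb and Csf2rb2 differed from each other by 0.11, against 0.81 between Csf2rb and Csf2ra and 0.76 between Csf2rb and Il3ra. Nearest to Csf1r were Naip5 and Clec4a1 (0.13 each) and Fli1 (0.14), and to Csf1 Slc7a7, Cpne2 (0.10 each) and Sod3 (0.11). Csf1 and Csf1r differed by 0.20. For Csf2ra they were Pde10a (0.15), Cpne2 (0.18) and Irgm2 (0.19), and for Il3ra Ankrd55 (0.16), Lrp3 (0.19) and Tnfrsf13b (0.19).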

How the data were processed

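Skin RNA of 8 mice was sequenced after TruSeq library preparation. The authors aligned the reads with STAR (2.5.2) to GRCm38, used featureCounts to assign them to genes and deposited the raw, unscaled counts of protein-coding genes, labelled as reverse-stranded. Library totals of 18004136 to 21085544 counts set the precision.

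Groups were taken from the sample labels (Vehicle as CTL, SCFA as butyrate, atopic dermatitis as lesional). The members, the gene lists and the rule for naming genes were chosen with earlier results of these data known. CPM values were computed from TMM-scaled library sizes. Genes were tested in edgeR (4.0.16, R 4.3.3) with a robust quasi-likelihood fit of all 8 mice, 1 mean per group, after filterByExpr (minimum count 10). A call needed an FDR (Benjamini-Hochberg, over all tested genes) under 0.1 with a fold above 2. The SE of a log2 fold change is its size over the root of the F statistic, and the prior count was 0.125. Of non-members, Il3, Il5 and Il34 were named, and per list and comparison up to 4 called genes with the largest log2 fold change, or the 2 with the smallest p where none was called. Of the genes so chosen, 1 is not reported here. For each member above 1 CPM the 3 nearest profiles were named. The tests were checked on simulated counts. Alternatives changed the test (DESeq2 1.42.0, or limma-voom from limma 3.58.1), the normalization, the filter, the prior count, the thresholds or the mice fitted.

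Gene models, exon lengths and coding sequences came from GENCODE vM21 (GRCm38), matched by gene identifier for 8 of 8 members, and promoters from RefSeq.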

Additional observations from a re-analysis of the deposited data

How the results depend on the processing

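The only called member, Csf2rb2 with HDM in CTL mice, kept its direction under every alternative. Some values that were not called changed sign. That of Csf1 for the difference between the butyrate effects kept its sign in 12 of 16 settings, and that of Il3ra with butyrate in baseline skin in 14 of 17. Of 581 alternative log2 fold changes of members 537 moved by less than 1 SD between replicates and 44 by more, 40 of them when a mouse was left out and 27 of those a baseline butyrate mouse. Csf2rb, Csf2rb2 and Il3ra kept their direction in lesional butyrate against lesional CTL skin under every alternative run, with log2 fold changes of -1.15 to -1.02, -1.01 to -0.80 and -1.07 to -0.81 when a mouse was left out. In that comparison 1 mouse moved the value of Csf2ra between -0.70 and -0.17 (without lesional CTL replicate 4 or 5), and those of Csf1 between -0.80 and -0.22 and of Csf1r between -0.66 and -0.04 (without lesional butyrate replicate 4 or 3), and Csf2 lay between 0.35 and 0.87 (without lesional CTL replicate 4 or 5).

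Counts of called members and pathway genes changed most when a baseline butyrate mouse was left out. With HDM in CTL mice, where 1 member was called, 2 (Csf2rb and Csf2rb2) were called with library totals only, limma-voom, DESeq2 or the 4 compared mice only, and 0 at an FDR below 0.05. With a mouse left out it was 0 to 3, with 3 (Csf2, Csf2rb and Csf2rb2) without either baseline butyrate replicate and 0 without any other mouse. Of the 6 pathway genes 2 were called at an FDR below 0.05, 13 genes with the 4 compared mice only and 0 to 13 with a mouse left out. With butyrate in lesional skin, 1 member (Csf2rb) was called with the 4 compared mice only and 0 to 1 with a mouse left out, again Csf2rb without either baseline butyrate replicate. For pathway genes the counts were 3 by DESeq2, 1 (Il4ra) with the 4 mice only and 0 to 4 with a mouse left out. With HDM in butyrate-treated mice DESeq2 called 2 members and 4 pathway genes. Leaving out a mouse gave 0 to 5 members and 0 to 24 pathway genes. With butyrate in baseline skin and for the difference between the butyrate effects, both counts also ranged upwards from 0. The count over all genes rose from 0 in the same fits, so that nothing is read from them. The upper ends of these 3 comparisons came without baseline butyrate replicate 1, which leaves replicate 3 alone in its group, while without replicate 3 they called 0 members, and 3, 0 and 0 pathway genes. The 13 and 4 pathway genes of the CTL and lesional comparisons came without either baseline butyrate replicate. A mouse alone in its group was taken to vary like the others.

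Over all genes, the 543 called with HDM in CTL mice became 1093 with DESeq2 and 1918 with the 4 compared mice only, and the 53 called in butyrate-treated mice became 698, 0 and, with library totals only, 83. With a mouse left out, the 543 became 0 and 1 without baseline CTL replicate 1 or 2, 21 and 38 without lesional CTL replicate 4 or 5, 226 and 230 without lesional butyrate replicate 3 or 4, and 1890 and 1884 without baseline butyrate replicate 1 or 3. The 53 became 2689 and 912 without baseline butyrate replicate 1 or 3 and 6 to 10 without any other mouse. Library totals in place of TMM moved the median log2 fold change of all genes with HDM in CTL mice from -0.02 to 0.11, and that of the difference between the butyrate effects from -0.04 to -0.12. No paired analysis was possible because each mouse gave 1 library and the groups that were compared held different mice. Depth limits Csf2, Il5, Il3 and Il5ra, which are near the floor of 3 counts.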
